A study of Mus musculus with 6 samples.

Results

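The genes described here make, break down and take up the inhibitory transmitter GABA, bind it at the metabotropic GABA-B receptor, and set the chloride gradient on which its fast action depends. They are *Gad1* and *Gad2* (synthesis), *Abat* (breakdown), *Slc6a11* and *Slc6a13* (uptake), *Slc12a5* and *Slc12a2* (chloride cotransport), and *Gabbr1* and *Gabbr2* (receptor). They were chosen by function and found by gene name in the transcript assembly, where all 9 had a locus, out of 34632 loci in all and 23985 with a gene name. RNA was sequenced from whole brainstem of mice at postnatal day 21, in 3 libraries labelled *Hoxa5* control (Hoxa5flox/flox;CMV-CreERT2-/-) and 3 labelled *Hoxa5* cKO (Hoxa5flox/flox;CMV-CreERT2+/-). Every animal, control or mutant, was homozygous for the floxed *Hoxa5* allele and received tamoxifen on postnatal days 1 to 4. The genotypes therefore differ in the tamoxifen-inducible Cre, which is driven by the ubiquitous CMV promoter and is not restricted to inhibitory neurons. Each library is a pool of 3 brainstems, so that animals within a pool cannot be told apart. The comparison asks whether RNA of these genes differed in the postnatal brainstem after loss of HOXA5.

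Neurons that release GABA make it from glutamate by decarboxylation. GAD67, encoded by *Gad1*, provides most of the basal supply, and GAD65, encoded by *Gad2*, is found at nerve terminals. Released GABA is cleared by membrane transporters on neurons and astrocytes and is then degraded in mitochondria by GABA transaminase. Chloride-permeable GABA and glycine receptors inhibit a mature neuron because KCC2, encoded by *Slc12a5*, extrudes chloride, whereas NKCC1, encoded by *Slc12a2*, loads it. The GABA-B receptor is an obligate heterodimer in which the GABBR1 subunit binds GABA and GABBR2 couples to G proteins. In the brainstem, inhibition through GABA and glycine shapes the breathing rhythm and its pattern.

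Libraries held 12034613 to 13202707 fragments at all loci. All 8 markers of brainstem identity in a fixed list were detected, none at 0. The count of the locus that holds *Hoxa5* did not follow the labels. This locus also holds *Hoxa6* and *2700086A05Rik* (mm10, chromosome 6, 52201754 to 52211868), so the level of *Hoxa5* alone cannot be read from it. With RT-qPCR on dissected parts of the brainstem, the study found *Hoxa5* RNA to be much lower in cKO mice. The locus had 202, 337 and 77 fragments in the controls, against 279, 57 and 63 in the cKO libraries. Values are in the order of the replicate numbers, which is used throughout. Control replicate 3 was thus close to 2 of the libraries labelled cKO, and cKO replicate 1 as high as the other controls, so the genotypes below are those of the labels. In both libraries the cerebellar markers described next went with the label, with granule neuron markers summing to 426.9 CPM in control replicate 3 and 210.1 in cKO replicate 1, and Purkinje cell markers to 504.6 and 259.4. Each of these markers passed the test between the labelled genotypes described below, and the lists were chosen with earlier results of these data known. That they follow the label was thus partly fixed by this choice and cannot decide whether libraries were exchanged, which was not tested. The library of cKO replicate 1 also stood apart at 4 Y-linked genes, with 3 fragments against 1069 to 1734 in each other library. That pool thus held little or no RNA from males, whereas each other pool held some. The sex of the animals is not given in the sources used here, and its part in the levels was not tested. Genes used as markers of cerebellar neurons differed between the genotypes. All 7 granule neuron markers were lower in cKO (median log2 fold change -1.72, summed level 426.9 to 739.7 CPM in control and 208.2 to 235.9 in cKO), as were all 6 markers of Purkinje cells, which are themselves GABAergic (median -1.32, 493.0 to 765.7 against 259.4 to 320.9 CPM). Some of these genes are not restricted to the cerebellum. By in situ hybridization the paper detected *Zic1*, *Calb1* and *Itpr1* in brainstem nuclei that express *Hoxa5*. It also places *Gabra6* in some precerebellar nuclei. *Itpr1* and *Calb1* had the highest means of the Purkinje cell list, at 387 and 88.2 CPM in control and 194 and 54.8 in cKO. The summed levels can thus include RNA of brainstem neurons. In bulk tissue, fewer cells of a type in the dissected piece and less RNA per cell cannot be told apart. How much cerebellar tissue each pool held is not given in the sources used here, and its part was not tested.

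None of the 9 genes passed the test of a difference between the genotypes. Levels are given as CPM, the count of a locus relative to the library size after scaling by trimmed means, and differences as log2 fold changes of cKO over control with their standard errors (SE). They come from edgeR's quasi-likelihood test, fitted to all 21854 loci that passed a filter on low counts, among them all 9 genes. Of these loci, 116 had a Benjamini-Hochberg adjusted p under 0.05, which is 0.531%, with 110 lower and 6 higher in cKO. Among the 9 genes, 0 were called. With edgeR at an unadjusted p under 0.05 the count was also 0 of 9, against 6.94% of all loci, and DESeq2 gave 0 of 9 on both criteria. The median log2 fold change was 0.03 over the 9 genes and 0.0034 over all tested loci, with 5 genes above 0 and 4 below. The fitted differences ran from -7.67% for *Slc6a13* to 6.21% for *Slc6a11*. For the 8 genes other than *Slc6a13*, every 95% interval lay between -14.5% and 16.4%, and the intervals of single genes were narrower, as for *Abat* (-3.92% to 8.03%).

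**Figure D1:**
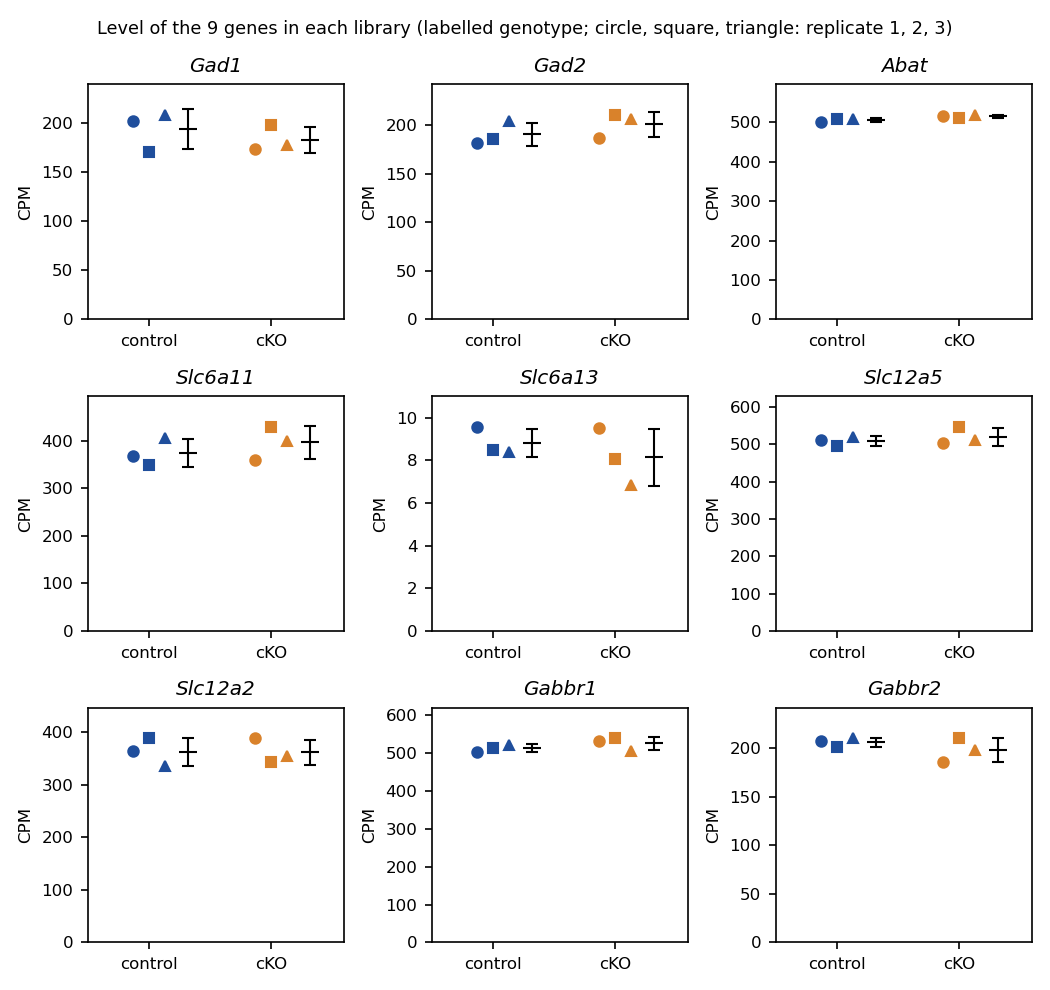
Level of each gene (CPM, axis from 0) in the 3 control libraries (blue) and the 3 cKO libraries (orange), with the mean and SD of each genotype beside them. The genotypes overlap for every gene but *Abat*, whose 6 libraries lie between 501 and 519 CPM.

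*Gad1* (mm10, chromosome 2, 70562164 to 70602012, plus strand) was assembled as 1 transcript with 3231 exonic bases. Its level was 202, 170 and 208 CPM in the control libraries and 173, 198 and 177 in the cKO libraries. The lowest library was a control, and the groups overlapped throughout. The log2 fold change was -0.08 (SE 0.07, edgeR adjusted p = 0.897, n = 3 per genotype). The assembled locus covers 81.4% of the span that GENCODE gives *Gad1* and starts downstream of its first base. *Gad2* (chromosome 2, 22622149 to 22693886, plus strand, 2 transcripts) stood at 182, 186 and 204 CPM in control and 186, 210 and 206 in cKO. Control replicate 3 came close to the higher cKO libraries, and cKO replicate 1 lay with the other controls. The log2 fold change was 0.07 (SE 0.06, edgeR adjusted p = 0.886).

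The ratio of the enzymes differed between the genotypes by no more than the spread of the libraries. Per unit length, in fragments scaled to exon length and library size (FPKM), *Gad1* was the more abundant of the pair in each of the 6 libraries. This order rests on the assembled lengths, 3231 exonic bases for *Gad1* and 5812 for *Gad2*. In CPM the ratio was 1.11, 0.916 and 1.02 in control and 0.929, 0.942 and 0.860 in cKO. The ratio of *Gad1* to *Gad2* FPKM was 1.91, 1.57 and 1.74 in control and 1.62, 1.61 and 1.47 in cKO. Its mean was 1.74 ± 0.171 (SD, n = 3) against 1.57 ± 0.0840 (SD, n = 3), with p = 0.3 by a two-sided exact permutation test. Over the 4 ratios tested in this way the adjusted p was 0.533. With 3 libraries against 3 the smallest p this test allows is 0.1.

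*Abat*, which encodes GABA transaminase (chromosome 16, 8513429 to 8621567, plus strand, 2 transcripts), was the steadiest of the 9 genes. It stood at 500.8, 508.6 and 508.3 CPM in control and 517.3, 510.4 and 518.5 in cKO. Each cKO library lay above each control library, the nearest pair being 508.6 and 510.4 CPM. Over the 6 libraries the coefficient of variation was 1.28%, next to the 1.25% that counting error alone would give at its mean number of fragments. The log2 fold change was 0.03 (SE 0.04, edgeR adjusted p = 0.947). *Abat* was the 1 gene of 9 whose groups did not overlap in CPM, where 12.2% of all tested loci did not overlap in one direction or the other. In FPKM, which the authors scaled differently, the groups of all 9 genes overlapped.

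The GABA transporters differed from each other in level far more than they differed between genotypes. *Slc6a11* encodes GAT3, the transporter of astrocytes (chromosome 6, 114131241 to 114249886, plus strand, 1 transcript). It stood at 367, 348 and 406 CPM in control and 360, 430 and 400 in cKO. Here too control replicate 3 was as high as 2 of the cKO libraries and cKO replicate 1 as low as the other controls. The log2 fold change was 0.09 (SE 0.06, edgeR adjusted p = 0.874), the smallest adjusted p among the 9 genes. *Slc6a13* encodes GAT2, which in the brain is known mainly from the leptomeninges and vessels (chromosome 6, 121300296 to 121337886, plus strand, 2 transcripts). It gave only 117, 104 and 111 fragments in control and 114, 105 and 87 in cKO, or 9.59, 8.47 and 8.39 CPM against 9.52, 8.06 and 6.87. On the log2 scale the difference was -0.12 (SE 0.14, edgeR adjusted p = 0.933), and the 95% interval, from -24.4% to 12.8%, was the widest of the 9. The spread of 11.9% over the 6 libraries compares with a counting error of 9.7%. Meningeal markers, 7 genes with 0 called, summed to 141 to 244 CPM in control and 152 to 180 in cKO, and their part in the *Slc6a13* level was not tested. The ratio of *Slc6a11* to *Slc6a13* FPKM was 23.9 ± 2.94 (SD, n = 3) in control and 28.0 ± 6.17 (SD, n = 3) in cKO, with an exact permutation p = 0.4 (two-sided, adjusted p = 0.533 over the 4 ratios).

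Neither chloride cotransporter passed the test. *Slc12a5* (chromosome 2, 164960818 to 164999965, plus strand, 2 transcripts) stood at 511, 496 and 520 CPM in control and 502, 547 and 511 in cKO. Apart from the high value of cKO replicate 2, the libraries of both genotypes lay in one range. The fitted log2 difference was 0.03 (SE 0.04, edgeR adjusted p = 0.946). *Slc12a2* (chromosome 18, 57878535 to 57946846, plus strand, 5 transcripts) stood at 364, 388 and 336 CPM in control and 388, 343 and 354 in cKO. Its highest values were a control and a cKO library at the same level, and the means were 363 and 362 CPM. The fitted log2 difference was -0.0033 (SE 0.06, edgeR adjusted p = 0.994). The *Slc12a5* to *Slc12a2* ratio is often read as an index of the mature chloride gradient of neurons. It was 1.43, 1.33 and 1.57 in control and 1.38, 1.59 and 1.46 in cKO. The means of 1.44 ± 0.123 (SD, n = 3) and 1.48 ± 0.109 (SD, n = 3) gave an exact permutation p = 0.7 (two-sided, adjusted p = 0.7). These are sums over isoforms and over all cells of the brainstem, neurons or not, which counts per locus cannot separate. *Ncoa5*, on the opposite strand, overlaps the 3′ end of *Slc12a5* and had 519 to 633 fragments per library, and whether strand was used in counting is not given in the sources used here.

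**Figure D2:**
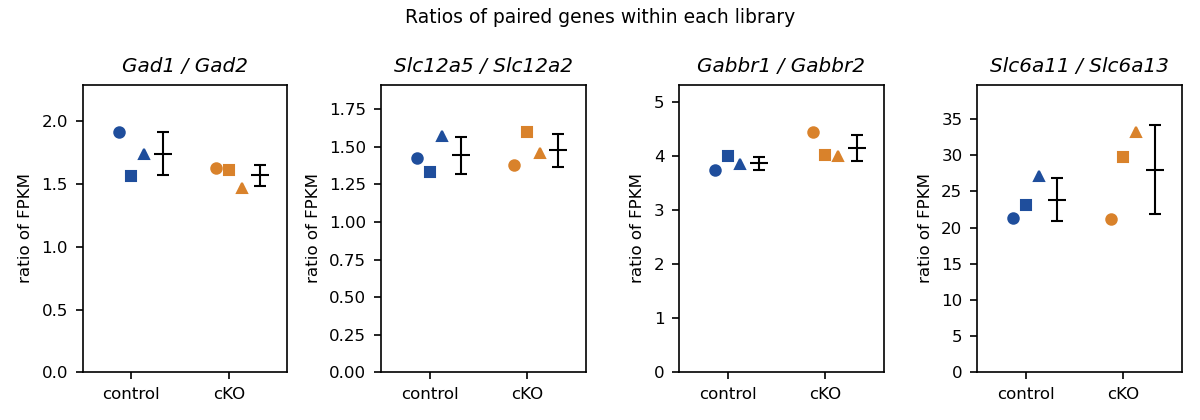
Ratio of FPKM (axis from 0) of 4 gene pairs within each library, control in blue and cKO in orange (circle, square and triangle for replicates 1, 2 and 3), with the mean and SD of each genotype. Only the *Gabbr1* to *Gabbr2* ratio separates the libraries by label, at 3.74 to 3.99 in control and 4.00 to 4.43 in cKO.

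Neither receptor subunit passed the test, and their ratio came nearest of the 4 to a separation by genotype. *Gabbr1* (chromosome 17, 37045826 to 37074305, plus strand, 3 transcripts) stood at 502, 514 and 523 CPM in control and 532, 540 and 506 in cKO, a log2 fold change of 0.04 (SE 0.04, edgeR adjusted p = 0.933). *Gabbr2* (chromosome 4, 46662325 to 46991921, minus strand, 2 transcripts) stood at 207, 201 and 210 CPM in control and 186, 210 and 198 in cKO, a log2 fold change of -0.06 (SE 0.05, edgeR adjusted p = 0.902). The lowest *Gabbr2* value and one of the 2 highest *Gabbr1* values were both in cKO replicate 1. The ratio of *Gabbr1* to *Gabbr2* FPKM was 3.74, 3.99 and 3.86 in control and 4.43, 4.02 and 4.00 in cKO, with means of 3.86 ± 0.123 (SD, n = 3) and 4.15 ± 0.243 (SD, n = 3). The exact permutation p was 0.1, the smallest the design allows, and 0.4 after adjustment over the 4 ratios. The nearest values of the genotypes were 3.99 and 4.00. With CPM in place of FPKM, control replicate 2 (2.56) lay above cKO replicate 3 (2.55), the groups overlapped, and the exact permutation p was 0.2.

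**Figure D3:**
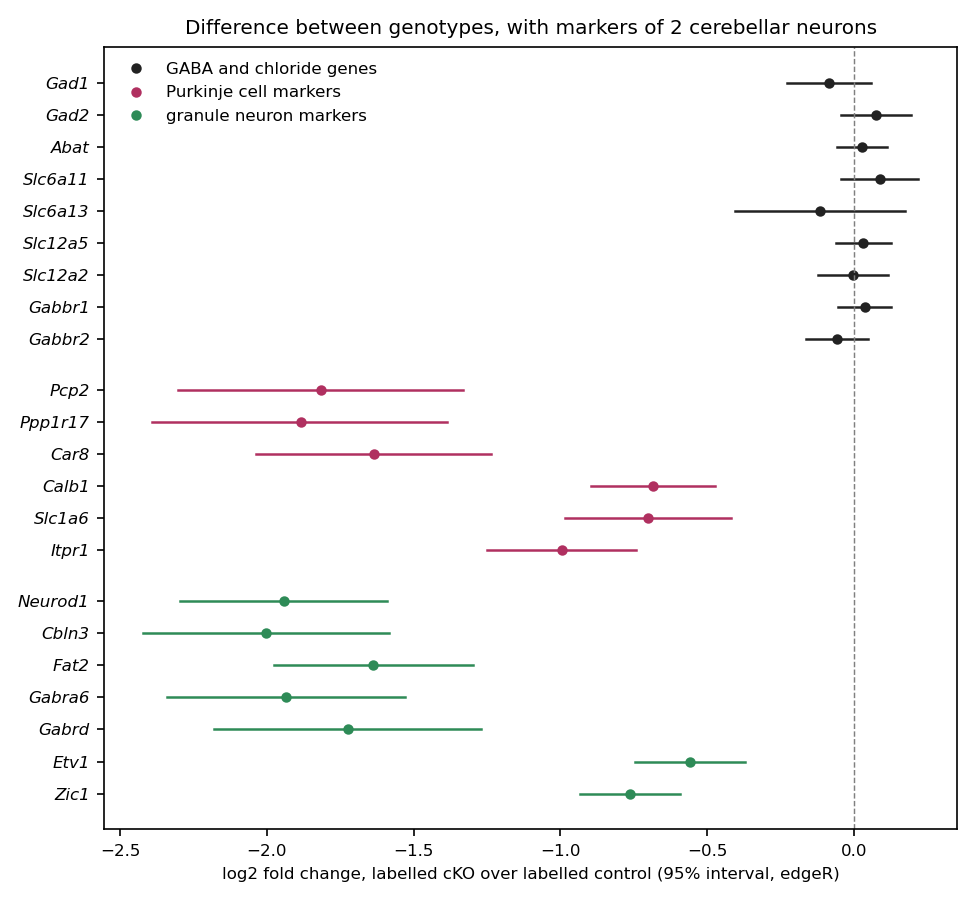
log2 fold change of cKO over control with its 95% interval (edgeR) for the 9 genes (black), 6 Purkinje cell markers (red) and 7 granule neuron markers (green). The intervals of all 9 genes include 0, whereas those of all the cerebellar markers shown lie below it.

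By level per unit length, the 9 genes covered a wide range, from *Gabbr1* to *Slc6a13*. *Gabbr1* was highest at 132 ± 3.79 FPKM (mean ± SD over 6 libraries), above every other gene in each library. *Abat* (104 ± 1.34) and *Slc6a11* (103 ± 7.93) did not differ beyond their spread, each being the higher in 3 of 6 libraries. *Slc12a5* (91.6 ± 2.54) lay below *Slc6a11* in all 6 libraries, though their ranges overlapped. *Slc12a2* (63.0 ± 3.33) and *Gad1* (60.3 ± 5.34) again could not be ordered. *Gad2* (36.6 ± 2.50) was above *Gabbr2* (33.1 ± 1.39) in 5 of 6 libraries. *Slc6a13* was far below, at 4.06 ± 0.503 FPKM, and still above 56.8% of named loci, while each of the other 8 genes was above at least 91.8% of them.

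Over the 6 libraries, 7 of the 9 genes had a coefficient of variation above 2 times counting error, at 2.32 to 5.69 times. *Abat* and *Slc6a13* stood at 1.02 and 1.22 times. Among the 7 genes the largest were those of *Gad1* (8.74%) and *Slc6a11* (8.18%), against counting errors of 2.06% and 1.44%. The share of all loci above 2 times counting error was not computed. The order of the libraries was then set beside the count of the *Hoxa5* locus, a comparison made after the values had been seen. Control replicate 3 and cKO replicates 2 and 3 had the fewest fragments there, 57 to 77 against 202 to 337. These 3 libraries were the highest for 3 of the 9 genes, *Gad2*, *Slc6a11* and *Slc12a5*, the last by 510.7 against 510.6 CPM at the nearest pair. They were the lowest for *Slc12a2* and for *Slc6a13*, whose spread is near counting error. The other 4 genes, *Gad1*, *Abat*, *Gabbr1* and *Gabbr2*, did not follow this order. The share of all loci with this order was not computed, so nothing particular to the 5 genes can be read from it. Oligodendrocyte markers, 6 genes with 0 called, summed to their 3 highest levels in the libraries where *Slc12a2* was highest (32269 CPM in cKO replicate 1, 29310 and 29395 in control replicates 1 and 2, against 26611 to 28594 in the others). Other marker lists were also at hand, and how often a list matches a gene in this way was not computed. The part of oligodendrocyte content, and of what sets the count of the *Hoxa5* locus, in the levels of the 9 genes was not tested.

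**Figure D4:**
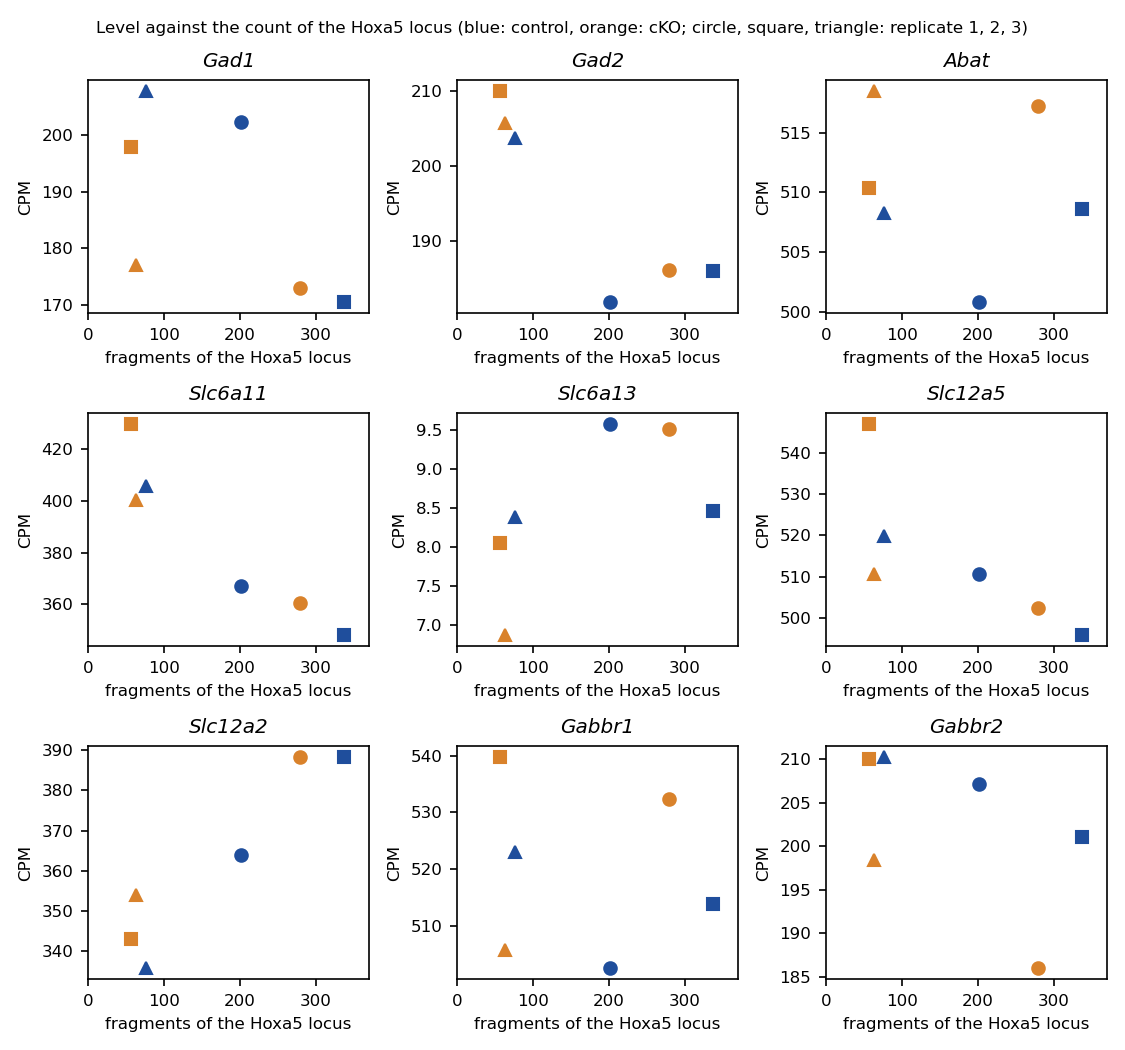
Level of each of the 9 genes (CPM, axes not from 0) against fragments of the *Hoxa5* locus in the 6 libraries, control in blue and cKO in orange. The 3 libraries with 57 to 77 fragments, 1 labelled control and 2 labelled cKO, lie above the others for *Gad2*, *Slc6a11* and *Slc12a5*, below them for *Slc12a2* and *Slc6a13*, and at neither end for the other 4 genes.

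Leaving out control replicate 3 and cKO replicate 1, the libraries whose *Hoxa5* locus goes against the label, called none of the 9 genes. For the genes in the order just described this removal widens the difference by construction, so the values restate that order and are no further evidence. The log2 fold change of *Slc6a11* was then 0.22 (edgeR adjusted p = 0.0643, n = 2 per genotype). That of *Gad2* was 0.18 (edgeR adjusted p = 0.157, n = 2 per genotype) and that of *Slc12a2* was -0.11 (edgeR adjusted p = 0.471, n = 2 per genotype). In the 4 libraries that were left, 3 of 9 genes had an unadjusted p under 0.05, against 10.1% of all loci in that fit, in which 161 loci were called. The other 6 genes had an adjusted p between 0.618 and 0.999.

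Genes that work with these 9 were likewise not called. Of 47 genes in 4 lists, 43 were tested, and 0 had an adjusted p under 0.05. At an unadjusted p under 0.05 there were 2 lower (*Kcnj3* and *Lhx1*) and 1 higher (*Pdxk*), or 6.98% of the 43, against 6.94% of all loci. Their median log2 fold change was 0.0046. Among 8 genes of GABA handling (median 0.03), *Pdxk*, the kinase that makes the pyridoxal phosphate on which GAD and GABA transaminase depend, had 1899, 2072 and 2145 fragments in control and 2112, 2392 and 2327 in cKO. Its log2 fold change was 0.16 (SE 0.05, edgeR adjusted p = 0.264). *Aldh5a1*, the succinic semialdehyde dehydrogenase that follows GABA transaminase, stood at 0.09 (edgeR adjusted p = 0.791), and *Aldh9a1*, an aldehyde dehydrogenase, at -0.08 (edgeR adjusted p = 0.933).

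Among 11 tested genes of other cation-chloride cotransporters and the kinases that regulate them (median log2 fold change 0.02), no gene reached an unadjusted p of 0.05. The smallest were *Wnk4*, a kinase of the WNK family with 25 to 48 fragments per library (log2 fold change 0.31, edgeR adjusted p = 0.871), *Oxsr1*, the kinase OSR1 that WNK kinases activate (-0.07, adjusted p = 0.902), and *Slc12a4*, the cotransporter KCC1 (-0.08, adjusted p = 0.907). For *Wnk4* the interval of -0.16 to 0.79 on the log2 scale leaves a wide range.

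Among 15 partners of the GABA-B receptor the median log2 fold change was -0.07. *Kcnj3*, which encodes the potassium channel subunit GIRK1 that the receptor opens, had 1280, 1206 and 1321 fragments in control and 1111, 1223 and 1183 in cKO (log2 fold change -0.11, SE 0.05, edgeR adjusted p = 0.662). *Kctd12*, an auxiliary receptor subunit, stood at -0.11 (edgeR adjusted p = 0.784) and *Gnai3*, an inhibitory G protein subunit, at -0.12 (adjusted p = 0.797).

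Among 9 tested transcription factors of inhibitory hindbrain neurons the median log2 fold change was 0.12. *Lhx1*, a LIM homeodomain factor that Purkinje cells also express, had 97, 86 and 103 fragments in control and 66, 80 and 78 in cKO, all 3 below the controls. Its log2 fold change was -0.35 (SE 0.13, edgeR adjusted p = 0.564), and the part of the lower Purkinje cell markers given above was not tested. *Gata2*, a selector of GABAergic fate, stood at 0.28 (edgeR adjusted p = 0.725). Its cKO libraries all lay above the controls, at 6.95 to 8.18 against 6.14 to 6.57 CPM. Groups did not overlap in CPM, in one direction or the other, at 12.2% of all tested loci. *Sox14*, a factor of GABAergic neurons with 15 to 49 fragments per library, stood at 0.46 (edgeR adjusted p = 0.865).

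Of the markers of other cells that carry these genes, nearly all missed the threshold. Astrocytes, which express *Slc6a11* and *Abat*, had 0 of 8 markers called, with a summed level of 4933 to 5065 CPM in control and 4953 to 5309 in cKO. Markers of cerebellar interneurons, which are GABAergic, had 0 of 6 called (176 to 198 CPM in control and 167 to 172 in cKO). Choroid plexus markers had 0 of 6 called, with 410 to 563 CPM in control and 520 to 666 in cKO. Of 6 general neuronal markers 1 was called, *Rbfox3*, at a log2 fold change of -0.30 (edgeR adjusted p = 0.0205). The median of the 6 was 0.03, and they summed to 3447 to 3500 CPM in control and 3491 to 3715 in cKO. The part of these cells in the levels of the 9 genes was not tested.

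**Figure D5:**
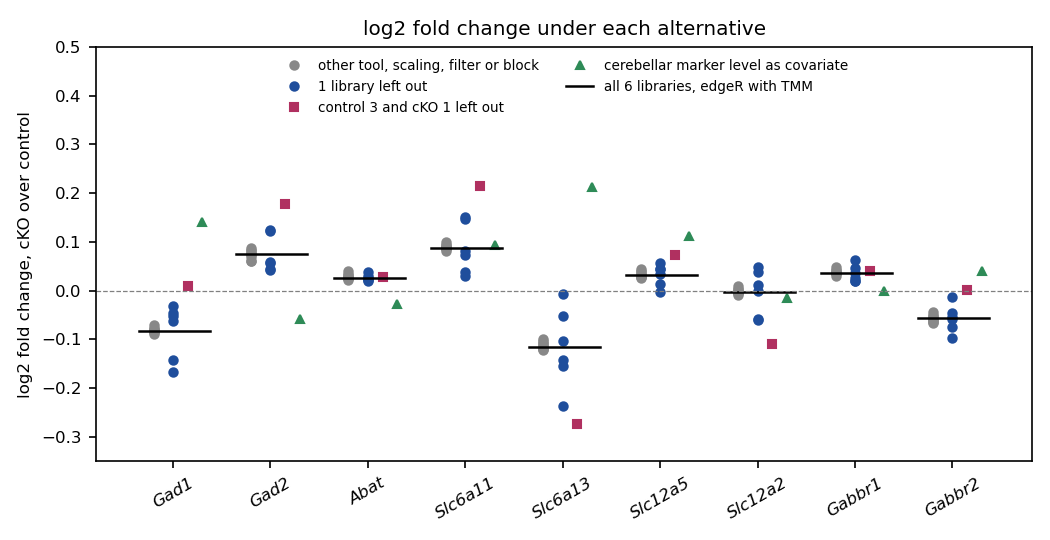
log2 fold change of each gene under the alternatives: other tools, scalings, filters and the block by replicate number (grey), 1 library left out (blue), control replicate 3 and cKO replicate 1 left out (red square) and cerebellar marker level as a covariate (green triangle), with the value from all 6 libraries as a black line. No alternative called a gene, and *Slc6a11* came nearest with an adjusted p of 0.0643 with both libraries left out.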

How the data were processed

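RNA from 6 pools of 3 brainstems was ribosome-depleted and sequenced as stranded paired-end libraries. Per the study's methods and the submitters' processing notes, the authors called bases with CASAVA 1.6, aligned to mm10 with TopHat2 2.0.9, assembled transcripts with Cufflinks 2.2.0 and quantified loci with Cuffdiff. The deposited table gives the raw fragment count of each locus and library (0 values were not whole) and FPKM, which the authors scaled between libraries. Its internally and externally scaled fragments were not used. Replicate numbers of the table only name the libraries of a genotype. The study describes the pools of a genotype as independent replicates, with littermates as controls.

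Counts were scaled by TMM and, after filterByExpr, compared with edgeR 4.0.16 (quasi-likelihood test, R 4.3.3), adjusted over 21854 loci (common coefficient of biological variation 0.0552). Intervals are 95%. The script was tested on simulated data. Ratios were compared by exact permutation (scipy 1.17.1). Alternatives used DESeq2 1.42.0, and limma 3.58.1 on log2(FPKM + 1) and log2(FPKM + 0.1), for loci with FPKM of at least 1 in 3 libraries, as well as other scalings and filters, libraries left out and covariates. CPM use TMM-scaled library sizes. The 9 genes, the lists and the tests were chosen with earlier results of these data known, and the lists are not complete. For 1 gene of the related lists no locus was found. Named are the 9 genes and, of each related list, called genes and up to 3 with the smallest p. Coordinates are those of the deposited assembly, compared with GENCODE vM21.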

Additional observations from a re-analysis of the deposited data

How the results depend on the processing

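The count of the 9 genes called was 0 under all 17 alternatives, as was that of the related genes. Of 153 values of the 9 genes under alternatives, 138 kept their sign and 15 changed it, and 0 passed the threshold. With the cerebellar marker level as a covariate, 0 loci were called. This level is built from the granule neuron and Purkinje cell markers, which separate the genotypes, so the fit can barely detect a genotype difference. In that fit *Gad1* was 0.14, *Gad2* -0.058, *Abat* -0.027, *Slc6a13* 0.21, *Gabbr1* -0.0016 and *Gabbr2* 0.040. *Slc12a2* was 0.0091 with upper-quartile factors, 0.0025 with at least 50 fragments in 3 libraries and 0.0040 with named loci only. With 1 library left out, or with control replicate 3 and cKO replicate 1 left out together, *Gad1* ran from -0.167 to 0.0086, *Gabbr2* from -0.097 to 0.0012, *Slc12a2* from -0.110 to 0.048 and *Slc12a5* from -0.0022 to 0.072, and the log2 *Slc12a5* to *Slc12a2* ratio from -0.023 (without control replicate 2; -0.022 without cKO replicate 2) to 0.147. With 1 library left out, *Slc6a13* ran from -0.238 to -0.0068, *Slc6a11* from 0.030 to 0.151, *Gad2* from 0.042 to 0.125 and the log2 *Gabbr1* to *Gabbr2* ratio from 0.055 (without cKO replicate 1) to 0.129. With edgeR, an unadjusted p under 0.05 then appeared for 2 of the 9 genes without cKO replicate 1 (*Gad2* and *Slc6a11*). It appeared for 1 gene without control replicate 2 (*Gad1*) and for 1 without control replicate 3 (*Slc6a11*). Among all loci, 2144 of 22835, 1434 of 22794 and 1538 of 22668 met this criterion in these fits, in the same order. The count of all loci called, 116, became 0 with limma on log2(FPKM + 1), 1 with log2(FPKM + 0.1), 221 with no filter, 76 with at least 50 fragments, 72 with named loci only and 0 with the covariate. It ran from 44 (without control replicate 1) to 126 with 1 library left out, was 65 without cKO replicate 3, and was 161 with both libraries left out. At an unadjusted p under 0.05 the loci numbered 1298, 1271 and 489 in the 3 fits that called 0 or 1. The causes were not tested. With replicate number as a block, 0 of the 9 genes and 130 loci were called, and the block changed no call among the 9 genes. Deviations of same-numbered libraries from their genotype means had correlations of 0.0316, -0.0821 and 0.0504. Those of differently numbered libraries ran from -0.111 to 0.0737. Such values near 0 show no pairing by number, and they cannot exclude that pools shared litters. About 106 fragments per library limit *Slc6a13*.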

Other observations

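*Tal1*, a factor that specifies GABAergic neurons of the midbrain and hindbrain and was picked here after its values were seen, was counted at 106, 110 and 175 fragments across the control pools and at 119, 162 and 143 across the cKO pools, in replicate order. Its 3 highest libraries were control replicate 3 and cKO replicates 2 and 3, which were also the 3 highest for *Gad2* and *Slc6a11*. Of the 9 tested factors of inhibitory hindbrain neurons, 2 had these libraries highest in CPM, *Tal1* and *Sox14*, and 7 did not. The share of all loci with this order was not computed, so nothing particular to these 2 factors can be read from it. *Sox14*, singled out likewise, gave 24, 15 and 35 fragments in control and 19, 49 and 34 in cKO. The glycine transporter *Slc6a5*, picked likewise, had 2523, 2930 and 2671 fragments in control and 2870, 2611 and 3427 in cKO and did not follow that order. Whether these genes share a source of variation with the *Hoxa5* locus was not tested.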
